A study of Mus musculus with 4 samples.

Results

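Skeletal muscle genes were measured in mammary tumors, where muscle that lies next to the gland can be taken along with the tissue. The group was a list of 34 genes of the sarcomere, of calcium handling and of muscle energy supply, chosen by gene symbol. All 34 genes had a probe set on the array, 54 probe sets in all out of 45037 that were not controls, and 22 genes had 1 probe set while 12 had more. Tumors came from female C57BL/6 mice at 110 days of age, 14 days after tumor onset. Every animal carried the PyV-mT transgene, which encodes the middle T antigen of polyoma virus and drives mammary tumors. One genotype was St6gal1-/-, which lacks the enzyme that adds alpha2-6-linked sialic acid to N-glycans, and the other was the wild-type littermates. RNA of 3 tumors from 3 animals was pooled for an array, with 1 null and 1 wild-type pool in set 1 and the same in set 2. Each genotype therefore has n = 2 pools throughout, and the spread between single animals was not measured. The sources used here do not name the promoter that drives the transgene.

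A muscle fibre is packed with sarcomeres, in which thick filaments of myosin pull on thin filaments of actin between Z-discs. Calcium released from the sarcoplasmic reticulum binds troponin C on the thin filament and starts contraction, and the SERCA pump takes the calcium back. Fast and slow fibres build these parts from different gene copies, so troponin, myosin and binding protein genes tell the fibre types apart. Mammary epithelium is not known to make most of these proteins, and in the mouse the mammary fat pads lie over the muscle of the body wall.

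Many of the muscle genes were dim. Of the 14 fast fibre genes, 9 were higher in the null pool of both sets, against 27.1% of all probe sets. Of the 34 genes, each read by its brightest probe set, 10 lay above the highest Y-linked signal on all 4 arrays, 12 on 1 to 3 arrays and 12 on none. That signal, 564.5 among 13 Y-linked probe sets, is used here as the upper limit of unspecific binding in these female animals. It is a strict limit, set by 1 value of a Sry probe set in the wild-type pool of set 2. The same probe set read 144, 142 and 131 on the other arrays, and the median Y-linked signal was 88.99. Ckm, Tnni2 and Tnnc2 rose in the null pools, 3 of the 19 member probe sets bright enough to be tested, and 0 fell. Across all probe sets tested, limma called 7.30% in either direction and 4.05% as higher in the null pools, against 15.8% of the 19. The filter itself favoured such calls: 7 of the 19, Ckm and Tnni2 among them, had a wild-type mean under its limit of 590.6 and passed through their null arrays. With no filter 0 of the 54 were called. The 4 slow fibre genes read at or below 564.5 on every array.

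The arrays were alike in scale, with medians from 588 to 619. St6gal1 itself read 2337 and 3642 on the null arrays against 2330 and 2796 on the wild-type arrays in sets 1 and 2, and its brighter probe set showed no loss (log2 ratio 0.19 ± 0.16, SE, limma adjusted p = 0.554). The sources used here do not say which exons are deleted in the null mice, so these probe sets check nothing, and every direction below rests on the labels. The epithelial markers Krt8, Krt18, Krt19, Cdh1 and Epcam read from 21835 to 150715 on all arrays, as the labelled tissue calls for. The ratio of 3' to 5' signal of Gapdh, which rises as RNA breaks down, was 0.873 and 0.869 in the null and wild-type pools of set 1, and 2.13 and 1.57 in those of set 2.

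The sequences just before the start of 4 members are shown, because 2 of these genes rose (Ckm and Tnnc2), Myh4 held each motif searched, and Acta1, a classic muscle promoter, did not separate by genotype. Each gives the 250 bases before the start as RefSeq places it (build GRCm38.p6), read along the gene's strand, with motif matches in capitals.

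Ckm, chr7:19410844-19411093, plus strand: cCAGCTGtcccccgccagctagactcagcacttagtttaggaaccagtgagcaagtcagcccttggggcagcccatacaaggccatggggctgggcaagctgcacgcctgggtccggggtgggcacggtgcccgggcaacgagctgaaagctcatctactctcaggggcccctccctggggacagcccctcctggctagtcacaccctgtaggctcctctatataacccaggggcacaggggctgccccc

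Tnnc2, chr2:164779735-164779984, minus strand: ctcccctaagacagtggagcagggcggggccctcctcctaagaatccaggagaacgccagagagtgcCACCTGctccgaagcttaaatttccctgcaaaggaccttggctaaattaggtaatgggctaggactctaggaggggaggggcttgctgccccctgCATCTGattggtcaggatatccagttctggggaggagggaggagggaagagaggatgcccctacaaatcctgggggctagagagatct

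Myh4, chr11:67237562-67237811, plus strand: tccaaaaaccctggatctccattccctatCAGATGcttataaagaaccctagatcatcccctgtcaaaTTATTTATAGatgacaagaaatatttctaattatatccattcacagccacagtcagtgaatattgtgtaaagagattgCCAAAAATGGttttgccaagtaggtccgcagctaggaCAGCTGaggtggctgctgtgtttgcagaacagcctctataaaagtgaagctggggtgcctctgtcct

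Acta1, chr8:123894776-123895025, minus strand: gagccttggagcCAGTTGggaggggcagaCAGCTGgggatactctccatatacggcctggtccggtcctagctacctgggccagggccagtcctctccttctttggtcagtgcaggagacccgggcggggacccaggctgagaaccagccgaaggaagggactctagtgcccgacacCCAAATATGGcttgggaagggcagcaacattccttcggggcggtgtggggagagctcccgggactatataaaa

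In these windows 3 motifs were searched on both strands: the E-box, CANNTG, which MyoD and related factors bind, the MEF2 motif, and the CArG box, which serum response factor binds. A promoter entry was found for 26 of the 34 genes, with 31 windows, and no motif overlapped another in them. The E-box was in 25 of the 31 windows (80.6%) and in 66.2% of all 32851 windows of this length. The MEF2 motif was in 4 (12.9%) against 2.92%, and the CArG box in 4 (12.9%) against 1.47%. Windows of 1 gene can overlap, and 2 of the 4 CArG windows were of Ldb3 and held the same box. Ckm held 1 E-box, Tnnc2 held 2 and Acta1 held 2 with 1 CArG box. Myh4 held 2 E-boxes, 1 MEF2 motif and 1 CArG box. A match describes the letters only, and no binding was measured here.

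Among the thick filament genes, Mylpf and Myh4 were higher on both null arrays than on either wild-type array, though neither passed the test. Mylpf, the fast regulatory myosin light chain, read 1806 and 1517 in the null pools of sets 1 and 2 against 1028 and 956 in the wild-type pools. Its log2 ratio was 0.72 ± 0.23 (SE, limma adjusted p = 0.0781). Myh4, the myosin heavy chain of the fastest fibres, read 843 and 1066 in the null pools against 414 and 420.4 in the wild-type pools. The groups did not overlap, and the log2 ratio was 1.11 ± 0.35 (adjusted p = 0.0770). Both wild-type values of Myh4 lay under the Y-linked level, and the mean of its null arrays on the log2 scale was 1.63-fold that level. A second probe set of Myh4, too dim to be tested, did not separate the genotypes. It read 204 and 206 in the null against 287 and 189 in the wild-type pools, all within the unspecific level.

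The other myosin parts separated less. Myl1, the fast alkali light chain, read 931 and 1034 in the null against 719.7 and 932 in the wild-type pools, and the groups overlapped (log2 0.25 ± 0.28, adjusted p = 0.692). Mybpc2, the fast myosin-binding protein C, read 499.5 and 1041 in the null against 54.0 and 622 in the wild-type pools, higher in the null pool of each set but with overlap between sets. It was too dim on average to be tested. Myh1, a heavy chain of fast fibres, went opposite ways, with 388 against 731 in set 1 and 397 against 280.1 in set 2. A dimmer probe set of Myh1 read 260.2 and 199 in the null against 486 and 471 in the wild-type pools, all within the unspecific level. Myh2, the heavy chain of fast oxidative fibres, read between 51.9 and 126, and Mybpc1, the slow-type binding protein, between 127 and 380.04 on its brightest probe set, while its 2 other probe sets went opposite ways. The heavy chain genes are near-identical copies, so how their probe sets share signal is uncertain.

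In the thin filament 2 fast troponin genes rose, while the median log2 ratio of its 8 genes was -0.06. Tnnc2, the calcium-binding subunit of fast troponin, read 1844 and 1970.2 in the null pools of sets 1 and 2 against 1199.6 and 868 in the wild-type pools. The groups did not overlap, and Tnnc2 rose 1.83-fold (log2 0.87 ± 0.23, limma adjusted p = 0.0318). Tnni2, the inhibitory subunit of fast troponin, read 1469 and 1038 in the null against 881 and 236 in the wild-type pools. It rose 2.52-fold (log2 1.33 ± 0.35, adjusted p = 0.0348), with log2 ratios of 0.71 in set 1 and 1.95 in set 2, and without the wild-type pool of set 2 (a fit with no set term) its log2 ratio was 0.47, against 2.19 without that of set 1. A second tested probe set of Tnni2 read 837 and 524 against 684 and 655 and had a log2 ratio of -0.01 ± 0.35 (adjusted p = 0.990), and the last one read at most 55.7. The rise of Tnni2 therefore rests on 1 of its 3 probe sets. In bulk tissue, more muscle cells in a pool and more transcript per cell cannot be told apart.

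Tnnt3, the subunit that ties fast troponin to tropomyosin, read 828 and 838 in the null pools against 294 and 592 in the wild-type pools. The groups did not overlap, yet the log2 ratio of 0.92 ± 0.38 did not pass (adjusted p = 0.183). Acta1, the actin of skeletal muscle, stood far above the Y-linked level but did not follow the fast troponins. It read 4353 and 3220.4 in the null pools against 3007 and 3543 in the wild-type pools, higher in the null pool of set 1 and lower in that of set 2 (log2 0.20 ± 0.16, adjusted p = 0.545). Acta1 is closely related in sequence to other muscle actins, of which Acta2 read 72917 to 99265 here. Whether its probe set also reads them was not tested, so the source of its signal is uncertain. Neb, the giant ruler protein of the thin filament, read 18.6 and 143 in the null against 238 and 211 in the wild-type pools, all within the unspecific level.

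The slow troponins gave no signal above that level. Tnnc1, the calcium-binding subunit of slow and cardiac troponin, read 141 and 363 in the null against 331 and 392 in the wild-type pools. Tnnt1 read 61.9 and 72.6 against 97.9 and 282, and Tnni1 read between 46.0 and 97.9, the slow subunits that bind tropomyosin and inhibit contraction. For these genes a difference was not detectable at this signal.

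No Z-disc gene passed the test, though Ldb3 was the brightest of all 34 genes. Ldb3, a Z-disc scaffold, read 5705 and 5340.3 in the null pools against 5120.1 and 4929.9 in the wild-type pools on its brightest probe set. The groups did not overlap, but by a small step (log2 0.13 ± 0.11, adjusted p = 0.554), and a second tested probe set was at 0.21 ± 0.19 (adjusted p = 0.589). Myoz1, a calcineurin-binding protein of fast Z-discs, read 957 and 1301 against 1121 and 633, with overlapping groups (log2 0.39 ± 0.31, adjusted p = 0.547). Tcap, the cap of titin, read 558 and 766 against 604 and 557 (log2 0.16 ± 0.36, adjusted p = 0.859).

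The remaining genes of this group straddled or lay under the Y-linked level and were not tested. Actn3, the alpha-actinin of fast fibres, ranged from 356 to 679.95, and Actn2, its partner in all fibres, from 31.3 to 80.2. Ttn, the elastic protein titin, ranged from 411 to 613 on the brightest of its 6 probe sets. Its dimmer probe sets, all within the unspecific level, disagreed. Some had both null arrays below both wild-type arrays, and another had them above. Des, the intermediate filament desmin, ranged from 294 to 614 on its brightest probe set, and Myot, a Z-disc crosslinker, from 23.2 to 305. The dimmer probe set of Des had log2 ratios of 0.15 in set 1 and -1.23 in set 2, each opposite to the brightest. On their brightest probe sets all 5 went opposite ways in the 2 sets. Desmin is also made by smooth muscle and pericytes.

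In calcium handling no gene passed the test, and the channels could not be read. Atp2a1, the fast fibre SERCA pump, read 1138 and 941 in the null pools against 551 and 509 in the wild-type pools. Its groups did not overlap, with a log2 ratio of 0.91 ± 0.32 that did not pass (adjusted p = 0.107). Both wild-type values of Atp2a1 lay under the Y-linked level, and the mean of its null arrays on the log2 scale was 1.77-fold that level. Casq1, which stores calcium in the reticulum of fast fibres, read 729 and 697 against 679 and 313, apart but close in set 1 (log2 0.58 ± 0.39, adjusted p = 0.458). Pvalb, the calcium buffer parvalbumin, read 1449 and 700.4 against 819 and 758, so only the null pool of set 1 stood out (log2 0.34 ± 0.31, adjusted p = 0.595). Ryr1, the release channel, read 149 and 349 against 31.0 and 44.3 on its brighter probe set, and Cacna1s, the voltage sensor, ranged from 30.3 to 68.9. Both lie within the unspecific level, so whether Ryr1 differed between the genotypes could not be judged. The dimmer probe set of Ryr1 read 181 and 58.1 in the null against 179 and 46.4 in the wild-type pools.

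Among the energy genes, Ckm rose. Ckm, the muscle creatine kinase, read 1083 and 1157 in the null pools of sets 1 and 2 against 219.6 and 478 in the wild-type pools. Both wild-type arrays lay under the Y-linked level, so its rise is given as at least 1.91-fold (log2 1.65 ± 0.38, limma adjusted p = 0.0148). Its second probe set, too dim to be tested, read 459.6 and 737 against 465 and 291, higher in the null pool in set 2 alone. Eno3, the muscle enolase, read 1301 and 1468 against 1121 and 827 (log2 0.50 ± 0.26, adjusted p = 0.292), and Cox6a2, a muscle subunit of cytochrome oxidase, read 897 and 1079.7 against 801 and 823 (log2 0.27 ± 0.29, adjusted p = 0.666). For both, the groups did not overlap, but the differences did not pass.

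Mb, the oxygen store myoglobin, was bright and not higher in the null pools. It read 3464 and 4699 in the null against 4625 and 4005 in the wild-type pools, with overlapping groups (log2 -0.09 ± 0.15, adjusted p = 0.794). Myoglobin is also known from mammary epithelium and breast tumors. Ckmt2, the mitochondrial creatine kinase, ranged from 20.4 to 208 and Pygm, the muscle glycogen phosphorylase, from 33.7 to 293, both within the unspecific level.

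**Figure D1:**
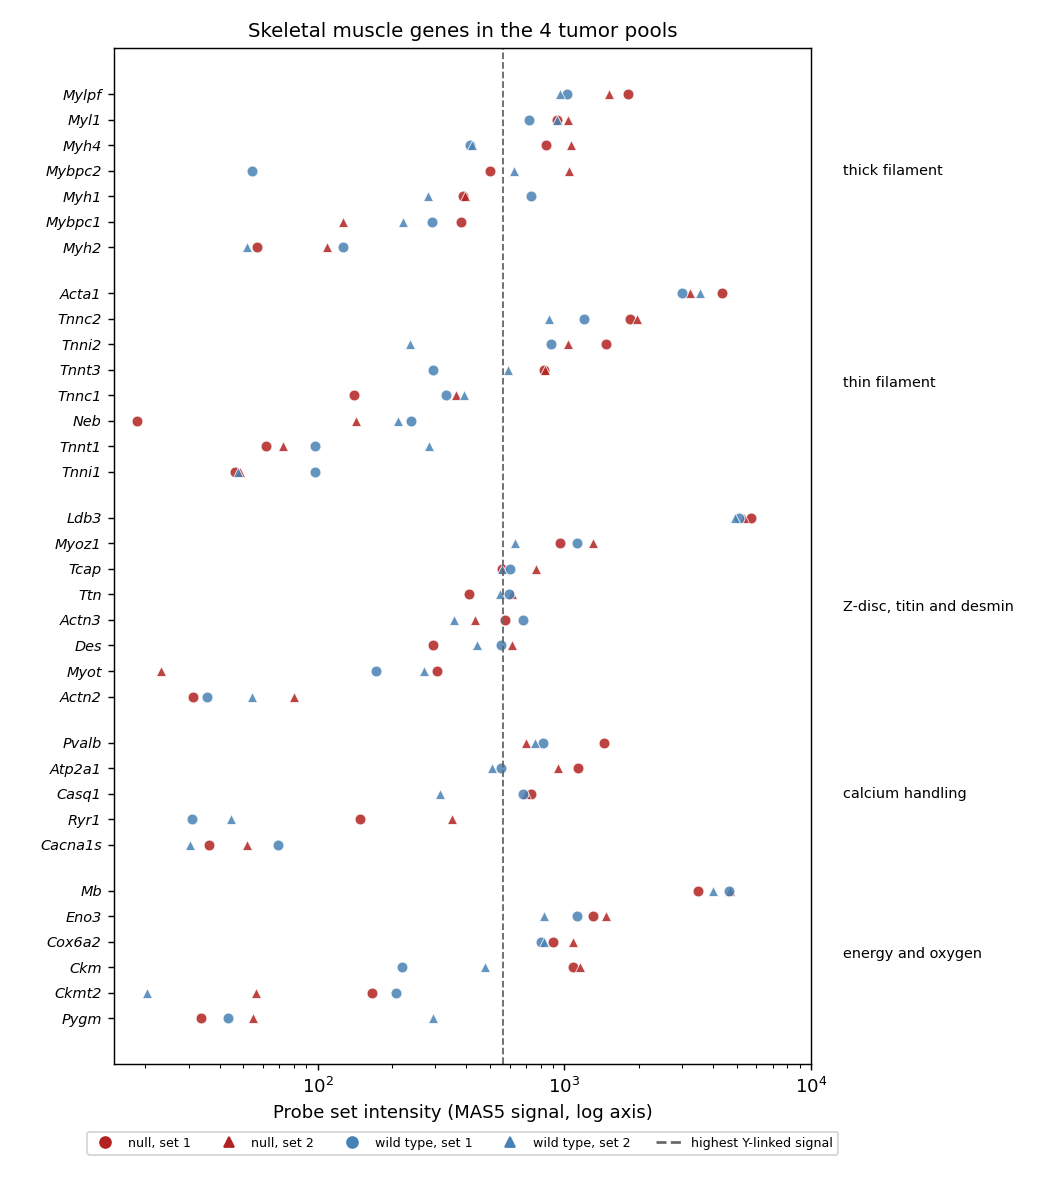
Intensity of each of the 34 genes (brightest probe set, log axis) on the 4 arrays, grouped by role, with red for null, blue for wild type, circles for set 1 and triangles for set 2. The dashed line is the highest Y-linked signal, 564.5. Both red points lie to the right of both blue ones for 12 genes (35.3%, against 15.8% of all probe sets). Among them are Ckm, Tnnc2 and Tnni2, and also Mylpf and Atp2a1, which did not pass the test. For 2 genes, Neb and Tnnt1, both red points lie to the left.

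The calls were few and depended on the fit. Counts of members past the filter cannot speak for the list, since Ckm, Myh4 and Atp2a1 had both wild-type arrays under its limit and 0 members had both null arrays under it. When all 54 member probe sets entered the fit, limma called 0 of them (8 at an unadjusted p under 0.05), against 1351 of all 45037. Ckm, Tnnc2 and Tnni2 were then at adjusted p = 0.0503, 0.0509 and 0.0855. Without the set as a term, and without the intensity trend, 0 member probe sets were called (5 and 7 at an unadjusted p under 0.05), as were 0 of all 22519 (1280 and 3486). With 2 against 2 arrays an exact permutation test cannot go below p = 0.333.

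By direction alone, 13 of the 19 tested member probe sets (68.4%) were higher in the null pool of both sets, against 28.4% of all tested, and 0 were lower in both. Over all 54 the count was 21 (38.9%), against 27.1% of all probe sets, with 10 lower in both sets and 23 mixed. Both null arrays lay above both wild-type arrays for 12 of the 19 (63.2%, against 15.1% of all tested) and for 17 of the 54 (31.5%, against 15.8% of all). The counts over the 19 are partly set by the filter, and those over all 54 are not. The 54 hold several probe sets of some genes, and 28 of them never passed the Y-linked level. The members were also chosen with earlier results of these data known. The median log2 ratio of the 34 genes was 0.17, with 0.13 in set 1 and 0.40 in set 2.

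Fast fibre genes were mostly higher in the null pools, and slow fibre genes could not be read. The 14 fast genes had a median log2 ratio of 0.65 (0.66 in set 1, 0.69 in set 2), against -0.03 over all probe sets tested. Of these genes 9 were higher in the null pool of both sets and 0 lower, where 27.1% of all probe sets were higher in both. Of the 10 fast genes bright enough to be tested, 2 rose, Tnnc2 and Tnni2, where 4.05% of all probe sets tested rose. Tnni2, Myh4, Tnnt3, Atp2a1 and Casq1 had a wild-type mean under the filter's limit, so the filter partly set this count. With no filter 0 of the 54 member probe sets were called. The second tested probe set of Tnni2 had a log2 ratio of -0.01. The 4 slow genes (Tnnc1, Tnni1, Tnnt1 and Mybpc1) had a median of -0.44, with -0.54 and -0.37 in the 2 sets, all of it within the unspecific level.

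Within an array the mean log2 signal of the fast genes minus that of the slow genes has no meaning as a level, but it can be compared between arrays. It was 2.34 and 2.35 in the null pools of sets 1 and 2 against 1.39 and 1.05 in the wild-type pools. The null pools were higher by 0.95 in set 1 and 1.30 in set 2, and the groups did not overlap. Part of this gap comes from slow genes that read lower in the null pools without standing above background, so it does not show a change of fibre type. This difference was not tested.

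**Figure D2:**
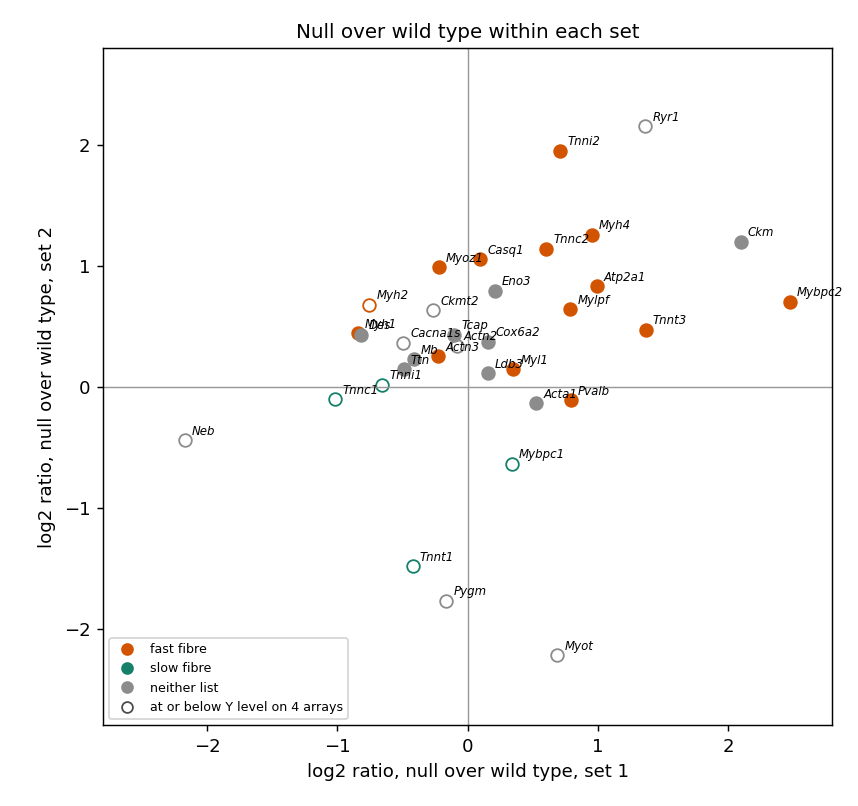
Log2 ratio of null over wild type for each of the 34 genes (brightest probe set), set 1 on the x axis and set 2 on the y axis, with fast fibre genes in orange, slow in green and others in grey, and open circles for genes at or below the highest Y-linked signal on all 4 arrays. Of the genes, 14 lie in the upper right quadrant (41.2%, against 27.1% of all probe sets), among them 9 fast genes, and 4 in the lower left.

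Between the sets few of the tested members changed, at a precision that leaves much undetected (SE up to 0.39). From set 1 to set 2, 1 of the 19 tested member probe sets changed (5.26%), against 23.6% of all probe sets tested. It was the brighter probe set of Tnni2, which fell by 1.10 ± 0.35 on the log2 scale (limma adjusted p = 0.0359). With quantile or cyclic loess normalization 0 were called, with 1 at an unadjusted p under 0.05 in each. The median of the 34 genes moved by -0.09 between sets and that of all tested probe sets by 0.03. Single dim genes that were not tested differed far more, such as Mybpc2 at 1.88 and Ckmt2 at -1.52.

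Of 91 other genes of the muscle programme with a probe set, 23 were higher and 29 lower in the null pool of both sets. Among all probe sets 27.1% were higher in both. Of the 91 genes, 55 lay at or below the Y-linked level on all arrays, so their directions could not be read. Bright enough to be tested were 31. Of the 31, 1 rose and 2 fell (9.68%, near the 7.30% of all probe sets), and the median log2 ratio of the 91 was 0.02. Cox8b, a cytochrome oxidase subunit of muscle and brown fat, rose 1.83-fold (log2 0.87 ± 0.21, limma adjusted p = 0.0191), with 4059.8 and 1767 in the null against 1661 and 1264 in the wild-type pools. Fbxo32, the ubiquitin ligase atrogin, fell by 0.64 ± 0.11 (adjusted p = 0.00220), and Tpm1, a tropomyosin made in many cells, fell by 0.29 ± 0.08 (adjusted p = 0.0471).

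In the lists of calcium and excitation genes, of myogenic factors and of muscle membrane genes, 0 of 6, 0 of 4 and 0 of 3 tested genes passed. The brightest tested calcium and excitation genes were Chrnb1, a subunit of the acetylcholine receptor, at -0.36 ± 0.15 (limma adjusted p = 0.171) and Srl, a reticulum protein, at -0.18 ± 0.35 (adjusted p = 0.830). Mef2a and Mef2d, MEF2 factors that many cells make, were at 0.03 ± 0.10 and -0.18 ± 0.11 (adjusted p = 0.913 and 0.404). Dmd, dystrophin, was at -0.27 ± 0.14 and Sgcb, a sarcoglycan, at 0.07 ± 0.15 (adjusted p = 0.310 and 0.856). Myod1, Myog, Myf5 and Myf6, the factors that commit cells to muscle, read at most 464 on any array, within the unspecific level.

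Markers of some other cell types were also higher in the null pools. The summed signal of the 14 fast genes was 13512 and 13084 in the null pools against 9296 and 7525 in the wild-type pools. Of 9 fibroblast markers 9 rose and 0 fell, with a median log2 of 1.26 and a summed signal of 332693 and 379822 in the null against 157409 and 161962 in the wild-type pools. Of 5 white fat markers tested 4 rose and 0 fell, and the 6 on the array had a median of 1.45 and summed to 60999 and 53811 against 24710.2 and 22039. Of 7 endothelial and pericyte markers tested 3 rose and 0 fell, with a median of 0.73 over 8. Of 2 nerve, 2 skin and 1 erythrocyte marker tested 0 passed, and these lists had medians of -0.24, -0.04 and 0.86. The part of these cell types in the muscle differences was not tested.

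Smooth muscle and myoepithelial markers were more often lower than higher in the null pools. Of 11 smooth muscle and myoepithelial markers, all tested, 1 rose (Actg2) and 4 fell (Mylk, Oxtr, Myh11 and Krt5), with a median of -0.18 and a summed signal of 150743 and 161305 in the null against 184074 and 189755 in the wild-type pools. Of 8 cardiac markers 0 passed among the 2 tested, with a median of -0.04 and a summed signal of 2667 and 3398 in the null against 2441 and 2944 in the wild-type pools. Brown fat can also make muscle-type transcripts: of its 5 markers 2 were tested and 1 rose (Dio2), while Cidea did not pass (limma adjusted p = 0.343), and the list's median was 0.55. Ucp1, the protein that defines brown fat, was too dim on average to be tested and read 603 and 859.6 in the null against 31.2 and 24.7 in the wild-type pools. Ppargc1a was lower in the null pool of both sets (-0.56 and -0.02) and Elovl3 went opposite ways (0.98 and -0.13), neither tested. Epithelial markers had a median of 0.21, with 1 of 5 higher (Krt19) and 0 lower.

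**Figure D3:**
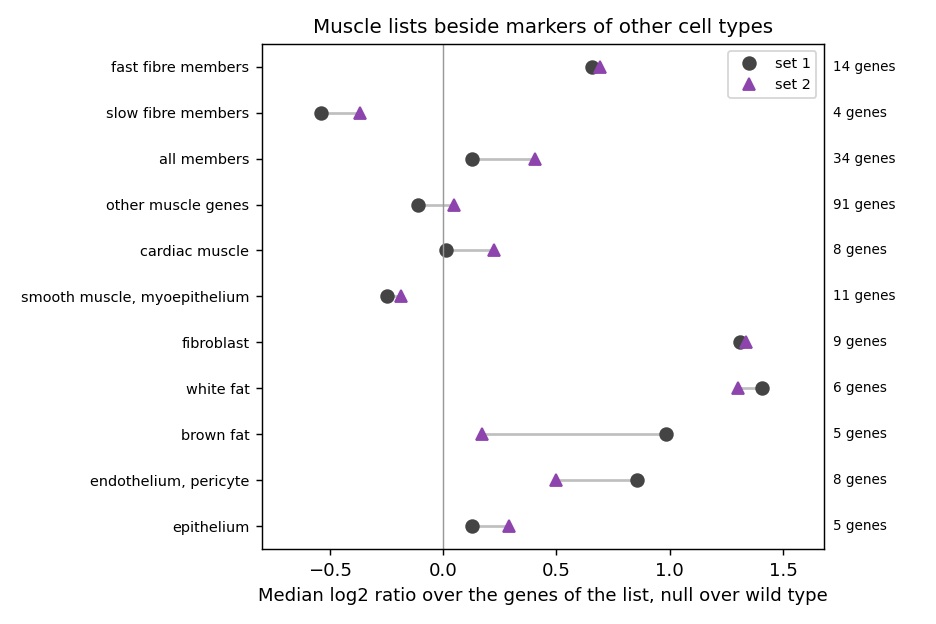
Median log2 ratio of null over wild type over the genes of each list, in set 1 (circles) and set 2 (triangles), with the number of genes at the right. Fast fibre genes lie at 0.66 and 0.69, slow ones below 0 within the unspecific level, and fibroblast and white fat markers above 1.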

How the data were processed

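The values the authors deposited are linear intensities, 1 per probe set, of 4 Affymetrix Mouse Genome 430 2.0 arrays and were made with MAS5 per the submitters' processing notes (version not given in the sources used here). All 4 arrays had a mean of 2500.01 after trimming 2% at each end, so no scaling was added. Per the labels' protocols, RNA came from 100 mg of tissue, and 6 ug was labelled.

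Control probe sets were left out, and members were found by exact gene symbol in the platform annotation. All 34 symbols were those of RefSeq (GRCm38.p6). A gene is read by its brightest probe set. Values were log2(intensity + 44), where 44 is the 10th percentile, and folds on this scale understate changes of dim genes. Probe sets whose mean reached the median (590.6) were tested, 22519 in all, and fitted with limma 3.58.1 in R 4.3.3 (eBayes with intensity trend, set and genotype as terms, Benjamini-Hochberg over all tested, threshold 0.05). The fit leaves 1 residual degree of freedom and borrows 13 more, so calls rest largely on the spread of other probe sets. Set is a term because the series compares 1 pair of pools in each set. The fit was tested on simulated data, where it recovered the folds set, but in some runs more of the calls were false than the threshold allows. The number of arrays limits the precision.

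"At least" marks a fold against the highest Y-linked signal, used where both arrays of the lower genotype lie at or below it. Such a fold compares the measured mean of the higher genotype with that signal. It carries no error and is not a confidence limit. Members, lists and this step were chosen with earlier results of these data known. All members are named, and of the other muscle genes those past the threshold, or else the 2 brightest of a list. Myogenic factors, single markers and Ucp1 were named after their values were seen. 0 columns of values stayed unmapped.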

Additional observations from a re-analysis of the deposited data

Results flagged for a closer look

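For 9 genes that read above the Y-linked level on at least 1 array, the null pool was higher in one set and lower in the other. With 1 pair of pools per set, this difference between the sets was not tested. The log2 ratios in set 1 and set 2 were 0.53 and -0.14 for Acta1, 0.79 and -0.11 for Pvalb, and -0.41 and 0.23 for Mb. They were -0.22 and 0.99 for Myoz1, -0.11 and 0.43 for Tcap, and -0.22 and 0.25 for Actn3. They were -0.84 and 0.44 for Myh1, -0.49 and 0.15 for Ttn, and -0.82 and 0.43 for Des.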

How the results depend on the processing

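Quantile and cyclic loess normalization and both other pseudocounts kept the calls of Ckm, Tnnc2 and Tnni2 as the 3 members that rose. Without the filter, without the intensity trend and without the set term 0 members were called, and 0 with the upper quartile filter, which leaves only 3 member probe sets. Without the trend limma called 0 of all probe sets for genotype and 0 for the set, and without the set term (no replicate block) 0 for genotype. Leaving out 1 array, which needs the fit without the set term, gave 19, 27, 4 and 8 calls in all and 0 among the members. For the set, 0 members were called with either normalization, either other filter or no trend. The cause was not tested.

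The median log2 ratio of the members, 0.17, was 0.13 in set 1 alone, 0.40 in set 2 alone and 0.50 over the 17 genes with a mean above the Y-linked level, some of which passed it through their null arrays. That of the fast genes was 0.68 with quantile, with cyclic loess and with a pseudocount of 1, 0.55 with the 25th percentile as pseudocount, 0.69 in set 2, 0.54 over all probe sets of a gene and 0.79 over the 10 above that level. That of the slow genes was -0.59 and -0.26 with the lower and the higher pseudocount. Fast minus slow was 1.28 and 0.82 with these, 1.20 in set 1 and 0.98 over all probe sets. Against the median Y-linked signal, 31 in place of 11 member probe sets lay above on all arrays. Dim signal limits most members, and 28 of 54 probe sets never passed 564.5.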
